A study of Mus musculus with 35 samples.

Results

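The axonemal dynein heavy chains examined here were Dnah1, Dnah2, Dnah3, Dnah6, Dnah7a, Dnah7b, Dnah8, Dnah10, Dnah12 and Dnah17, 10 genes chosen by name. Of these, 8 had a row among the 24411 gene rows of the count tables, and Dnah3 and Dnah12 were read from the transcript counts instead, summed per gene. The RNA came from adult mice of mixed C57Bl/6J and SV129 background in which SMG6, the endonuclease of nonsense-mediated mRNA decay (NMD), had been inactivated in germ cells. Smg6-cKO mice carried 2 Smg6 alleles with a loxP-flanked exon together with a Cre driven by the Neurogenin 3 promoter, which is active in early postnatal germ cells (Smg6 fx/fx; Ngn3Cre+). Controls were littermates without the Cre (Smg6 fx/fx; Ngn3Cre- or fx/wt; Ngn3Cre-). Pachytene spermatocytes and round spermatids were enriched by velocity sedimentation and sequenced as polyadenylated RNA, with 3 Smg6-cKO and 3 control libraries of each stage. Chromatoid bodies (CBs), the RNA granules of round spermatids, were isolated through their component DDX4 and sequenced as total RNA, with 4 control and 3 Smg6-cKO libraries that each pooled several mice. The submitters' design text takes both stages from 1 mouse, whereas the study's methods describe preparations from several testes, so whether a cell library stands for 1 mouse is not settled. The comparisons asked whether heavy chain mRNAs differed with genotype in the cells of each stage and in CBs, and between the 2 stages within a genotype.

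Axonemal dyneins are the motors that bend cilia and the sperm tail. Each outer or inner arm is built on heavy chains, very large ATPases that step along the neighbouring doublet microtubule. DNAH8 and DNAH17 are outer arm heavy chains of the sperm tail, whereas DNAH5, DNAH9 and DNAH11 serve the outer arms of motile cilia. DNAH2 and DNAH10 belong to double-headed inner arms, and DNAH1, DNAH3, DNAH6, DNAH7 and DNAH12 are single-headed inner arm heavy chains. Their mRNAs appear in meiotic and haploid germ cells, before and during growth of the tail.

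All 10 genes encode transcripts of similar size. In the GENCODE vM21 annotation of GRCm38 the longest coding transcripts ranged from 12009 bases with 74 exons in Dnah12 to 14973 bases with 81 exons in Dnah17, and the longest coding sequence was that of Dnah8, with 4731 codons in 93 exons. Dnah8 lies on chromosome 17 (30624354 to 30877365, plus strand), Dnah2 and Dnah17 lie on chromosome 11 (69420809 to 69549110 and 118021723 to 118130634, both minus strand), and Dnah3 lies on chromosome 7 (119922671 to 120095280, minus strand). Dnah7a and Dnah7b lie on chromosome 1 (53397006 to 53706784, minus strand, and 46066315 to 46373546, plus strand). Their transcripts shared sequence with each other and with the third copy Dnah7c: 27.8% of the 75-base words of the Dnah7a transcript and 34.3% of those of Dnah7b also occurred in another copy. Counting may have divided such reads between the copies, so the values of Dnah7a and Dnah7b are uncertain in that respect. None of the other 8 transcripts shared a 75-base word with another axonemal heavy chain (0.0%). Some overlap opposite-strand genes that have a row in the gene tables (Lyrm1 for Dnah3, Glo1 and 1700097N02Rik for Dnah8, Pgs1 for Dnah17). Dnah1, Dnah2, Dnah6 and Dnah10 overlap antisense genes without such a row. The gene tables were counted by strand. For the transcript counts, from which Dnah3 was read, the study's methods state no strand setting, and the part of Lyrm1 reads in them was not tested.

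The following promoter stretches are shown because they hold the short motifs searched for before the start sites of the heavy chains. RefSeq start sites (GRCm38.p6) were listed for 9 of the 10 genes, and the 250 bases before each start were searched on both strands for the X-box, the RFX factor site made of the element GTTGC and its reverse complement GCAAC with 0 to 3 bases between them. Dnah7a and Dnah7b are shown as examples of genes with an X-box, which 0.274% of all 27025 genes with an entry held, and they are not the complete list of matches among the heavy chains. The single element GTTGCC, which can overlap an X-box, was found before Dnah7a, Dnah7b and Dnah10 and in 11.8% of all genes. The motifs were chosen after the sequences had been seen, and a match is a description of letters, not of a bound site. Capitals mark the match, and each stretch reads 5′ to 3′ on the gene's strand.
Dnah7a X-box, chr1:53706821-53706849, minus strand, 57 to 45 bases before the start: gccagtttGTTGCTTAGCAACgaatcgac
Dnah7b X-box, chr1:46066821-46066849, plus strand, 24 to 12 bases before the start: gccagtttGTTGCTTAGCAACgaatcgac
Dnah10 single element, chr5:124725057-124725078, plus strand, 20 to 15 bases before the start: ctggcgccGTTGCCcaggtccc
The Dnah7a and Dnah7b stretches were identical over all 29 bases, and in GENCODE the longest Dnah7b transcript begins upstream of its match, so that match lies in an exon there.

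The 12 cell libraries held 36419197 to 47355837 counts on genes, and the 7 CB libraries held 2705277 to 12103906. Gene counts of Smg6 did not separate the genotypes: the log2 fold change (log2FC) of Smg6-cKO against control was 0.22 (adjusted P = 0.36) for spermatocytes, -0.01 (0.97) for round spermatids and -0.03 (0.91) for CBs, and a count over the whole gene does not measure the deleted exon. Round spermatid marker genes summed to 5380 to 5740 CPM (counts scaled by library total and TMM factor, a correction for library composition) in control round spermatids against 1710 to 2370 in control spermatocytes. The summed spermatocyte marker genes reached 6090 to 6320 CPM in control spermatocytes and 5640 to 6110 CPM in control round spermatids. This sum was carried mainly by Ldhc, at 3450 to 3710 CPM in control spermatocytes and 4350 to 4870 CPM in control round spermatids. Of the 12 genes, 9 were lower in control round spermatids and 1 was higher (adjusted P of at most 0.05, edgeR's quasi-likelihood test), with a median log2FC of -0.89. Of all genes tested, 39.7% were lower and 36.2% higher. No 2 libraries of the same group agreed within counting noise.

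Dnah8 was the most abundant heavy chain mRNA in every group of libraries. Levels of different genes were compared as CPM per kilobase of the longest coding transcript, from transcript counts summed per gene. In control spermatocytes Dnah8 stood at 178 ± 54.2 CPM per kilobase (SD, n = 3), followed by Dnah17 at 56.7 ± 6.45, Dnah2 at 38.3 ± 4.87 and Dnah1 at 31.4 ± 2.21, and the ranges of these neighbours did not overlap. Of the other single-headed inner arm genes, Dnah7b stood at 23.1 ± 1.09, and Dnah6 and Dnah7a overlapped at 18.97 ± 1.35 and 18.1 ± 0.634. At the bottom were the double-headed Dnah10 at 14.4 ± 1.67 and then Dnah12 and Dnah3, which overlapped at 11.9 ± 0.523 and 11.5 ± 3.19. By gene counts Dnah8 was the most counted gene of all in 4 libraries, namely Smg6-cKO spermatocyte replicates 1 and 3 and Smg6-cKO round spermatid replicates 1 and 3. In the control round spermatids it ranked between 39 and 120 of all genes, behind a set led by the protamine gene Prm2.

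**Figure D1:**
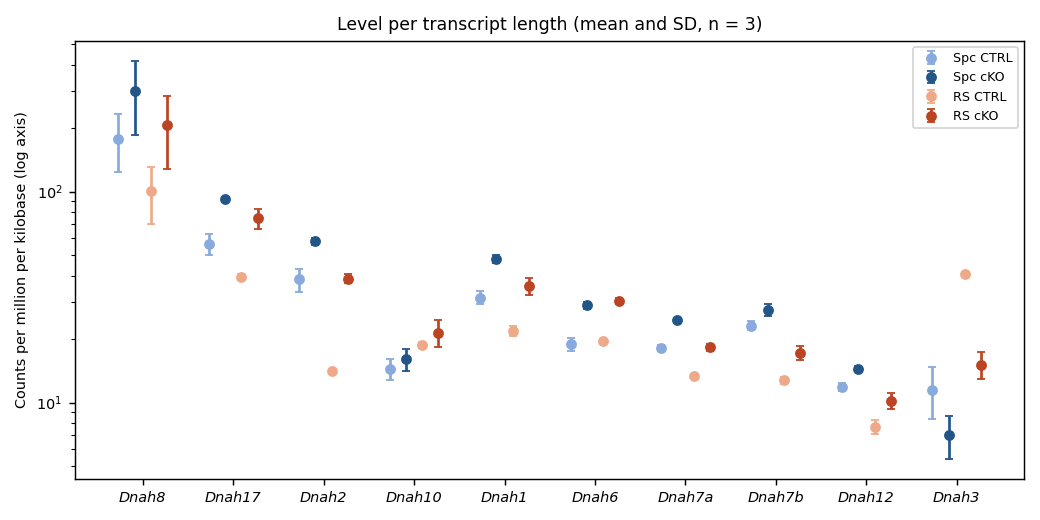
Level of each heavy chain in the 4 groups of cell libraries, in CPM per kilobase of transcript on a logarithmic axis (points are means, bars SD, n = 3 libraries). Dnah8 is highest in all 4 groups, from 100.3 in control round spermatids to 301 in Smg6-cKO spermatocytes, and Dnah3 is the one gene whose control round spermatid mean, 40.6, lies above its other 3 means.

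The order differed in control round spermatids. Dnah3 moved from the 10th place in control spermatocytes to the 2nd in control round spermatids, at 40.6 ± 0.721 CPM per kilobase, where it overlapped Dnah17 at 39.4 ± 1.26. Dnah2 went from the 3rd to the 7th place, at 14.1 ± 0.283 CPM per kilobase, Dnah7b from the 5th to the 9th, at 12.7 ± 0.453, and Dnah10 from the 8th to the 6th, at 18.7 ± 0.624. In Smg6-cKO round spermatids Dnah2 was again 3rd, at 38.7 ± 1.86 and overlapping the 4th gene Dnah1, and Dnah3 was 9th, at 15.1 ± 2.17 and overlapping the 8th gene Dnah7b.

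In Smg6-cKO spermatocytes the outer arm gene Dnah17 and the inner arm genes Dnah1, Dnah2, Dnah6 and Dnah7a were higher than in controls, by 1.28- to 1.5-fold, and Dnah3 was lower. Of the 8 heavy chains in the gene tables, 5 passed the test upward (adjusted P of at most 0.05, edgeR's quasi-likelihood test over all genes), where 14.0% of all 17321 genes tested did so, and 0 passed downward, where 14.1% of all genes did. No gene was lower at an unadjusted p under 0.05 (0 of 8) or by DESeq2 (0 of 8). The median log2FC of the 8 was 0.50 and that of all genes -0.01. None of the 8 also reached a log2FC of 1.5 in either direction, as 3.41% of all genes did upward and 5.1% downward. The groups did not overlap in 6 of the 8 genes, all upward, as in 30.7% of all genes.

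Dnah17 was measured at 810, 975 and 822 CPM in control spermatocytes and at 1432, 1436 and 1348 CPM in Smg6-cKO spermatocytes. All 3 Smg6-cKO libraries lay above all controls, with a log2FC of 0.59 ± 0.081 (SE, adjusted P = 0.0049). Dnah2, a double-headed inner arm chain, stood at 478, 592 and 497 CPM in controls and at 757, 819 and 807 CPM in Smg6-cKO (log2FC 0.50 ± 0.093, adjusted P = 0.011). Fits scaled the libraries of 1 comparison among themselves, whereas CPM were scaled over all 12 cell libraries, so a fold change can differ somewhat from the ratio of the levels given. Dnah1, whose product is an inner arm heavy chain required for a normal sperm tail, stood at 384, 431 and 396 CPM in controls and at 647, 609 and 596 CPM in Smg6-cKO (log2FC 0.50 ± 0.063, adjusted P = 0.0037). The 2 groups did not overlap for Dnah2 or Dnah1. Dnah6 had the same log2FC of 0.50 ± 0.081 (adjusted P = 0.0073), and Dnah7a reached 0.36 ± 0.057 (adjusted P = 0.0071). Both were single-headed inner arm genes without overlap between the groups.

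Dnah8 varied too much between libraries for a call in spermatocytes. Its levels were 1990, 2321 and 3475 CPM in controls and 5306, 2447 and 5398 CPM in Smg6-cKO. Replicates 1 and 3 of the Smg6-cKO lay above all controls, and replicate 2 lay within their range. The log2FC was 0.65 ± 0.32 (adjusted P = 0.17), and without Smg6-cKO replicate 2 it was 0.95 (adjusted P = 0.026). Dnah7b (0.15 ± 0.063, adjusted P = 0.12) and Dnah10 (0.06 ± 0.13, adjusted P = 0.77) did not pass, and the interval of the Dnah10 difference ran from -0.25 to 0.36. Dnah12 stood at 136, 148 and 143 CPM in controls and at 180, 170 and 173 CPM in Smg6-cKO, without overlap, but its log2FC of 0.20 ± 0.066 missed the threshold (adjusted P = 0.065), which 13.2% of the genes summed from transcripts passed upward.

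Dnah3 went the other way. The gene, which encodes a single-headed inner arm chain, was counted at 186, 113 and 124 CPM in control spermatocytes and at 77.7, 108 and 71.7 CPM in Smg6-cKO spermatocytes. The groups were separated by a narrow gap, and the log2FC was -0.81 ± 0.24 (adjusted P = 0.043, where 12.5% of the 20371 genes summed from transcripts passed downward). The call did not hold without control replicate 1 or 3 (adjusted P = 0.075 in both cases) or without Smg6-cKO replicate 1 or 3 (adjusted P = 0.14 and 0.12), with log2FC from -0.55 to -0.92.

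**Figure D2:**
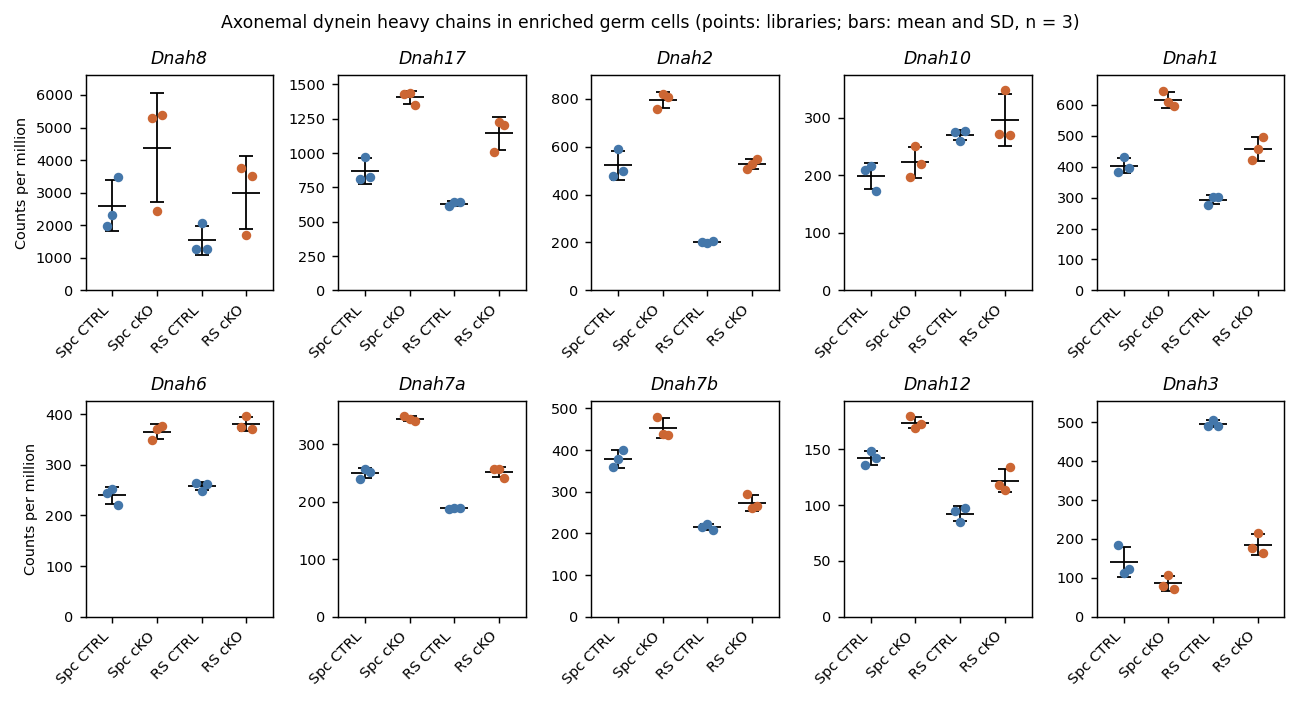
CPM of the 10 heavy chains in each spermatocyte (Spc) and round spermatid (RS) library of control (CTRL) and Smg6-cKO mice, with points for libraries and bars for mean and SD (n = 3). The Smg6-cKO points of Dnah2 in round spermatids lie at 505 to 547 CPM, above 198 to 206 CPM in controls, while those of Dnah3 lie at 164 to 215 CPM, below 492 to 507 CPM.

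Other cell types also differed between the spermatocyte fractions. The late spermatid markers summed to 3780 to 7770 CPM in controls against 452 to 1470 CPM in Smg6-cKO, with 10 of 10 genes lower, and the Sertoli cell markers to 292 to 780 against 168 to 252 CPM, with 8 of 10 lower. The Leydig cell markers summed to 115 to 367 CPM in controls and 553 to 1150 CPM in Smg6-cKO (3 of 7 higher), and the macrophage markers to 36.1 to 43.3 and 50.4 to 75.5 CPM (8 of 10 higher and 1 lower). The erythroid markers summed to 10.9 to 20.8 and 1.58 to 3.4 CPM (1 of 4 tested lower). None of these genes was at 0 in a whole group. In bulk RNA, fewer cells of a type and less RNA per cell cannot be told apart, and the part of these differences in the heavy chain results was not tested.

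In round spermatids 7 of the 8 heavy chains were higher in Smg6-cKO than in control, led by Dnah2 with a 2.64-fold difference, while Dnah3 was 2.66-fold lower. Upward calls were frequent in this comparison, with 38.4% of all 17492 genes tested passing upward and 34.3% downward. None of the 8 passed downward (0 by edgeR, 0 at an unadjusted p under 0.05 and 0 by DESeq2). The median log2FC of the 8 was 0.61 and that of all genes 0.11. None of the 8 reached a log2FC of 1.5, whereas 14.8% of all genes did so upward and 11.6% downward with an adjusted P of at most 0.05. The groups did not overlap in 6 of the 8 genes, all upward, as in 40.0% of all genes.

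Both outer arm genes of the sperm tail were higher. Dnah17 stood at 613, 643 and 643 CPM in controls and at 1007, 1225 and 1203 CPM in Smg6-cKO, without overlap (log2FC 0.87 ± 0.083, adjusted P = 4e-05). Dnah8 stood at 1267, 2060 and 1271 CPM in controls and at 3770, 1703 and 3513 CPM in Smg6-cKO. Smg6-cKO replicate 2 lay below control replicate 2, so the groups overlapped, while the other 2 Smg6-cKO libraries lay above all controls. The log2FC of Dnah8 was 0.98 ± 0.31 (adjusted P = 0.019), and it no longer passed without control replicate 1 (adjusted P = 0.07), control replicate 3 (0.068) or Smg6-cKO replicate 1 (0.068).

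Among the double-headed inner arm genes, Dnah2 and Dnah10 behaved unlike. Dnah2 was measured at 201, 198 and 206 CPM in controls and at 505, 528 and 547 CPM in Smg6-cKO, with a gap between the groups wider than their spread (log2FC 1.40 ± 0.058, adjusted P = 5.6e-07). Dnah10 stood at 275, 261 and 277 CPM in controls and at 271, 349 and 270 CPM in Smg6-cKO. The groups overlapped and the log2FC was 0.14 ± 0.10 (adjusted P = 0.23, interval -0.09 to 0.38).

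The single-headed inner arm genes other than Dnah3 were modestly higher. Dnah1 stood at 276, 303 and 303 CPM in controls and at 420.3, 457 and 496 CPM in Smg6-cKO (log2FC 0.65 ± 0.078, adjusted P = 0.00014). Dnah6 was measured at 265, 249 and 262 CPM in controls and at 375, 397 and 372 CPM in Smg6-cKO (log2FC 0.57 ± 0.059, adjusted P = 5.8e-05). Neither gene had overlapping groups. Dnah7a (0.43 ± 0.057, adjusted P = 0.00025), Dnah7b (0.36 ± 0.069, adjusted P = 0.0019) and, from summed transcripts, Dnah12 (0.42 ± 0.088, adjusted P = 0.0033) also passed without overlap. Among all 20640 genes summed from transcripts, 36.6% passed upward.

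Dnah3 was the only one of the 10 genes that passed downward, where 32.9% of the genes summed from transcripts did. It stood at 492, 507 and 492 CPM in control round spermatids, the tightest group of all its libraries, and at 177, 215 and 164 CPM in Smg6-cKO round spermatids. The log2FC was -1.41 ± 0.10 (adjusted P = 1.1e-05), and it passed below 0 in each of the 10 alternative fits, from -0.87 to -1.49.

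**Figure D3:**
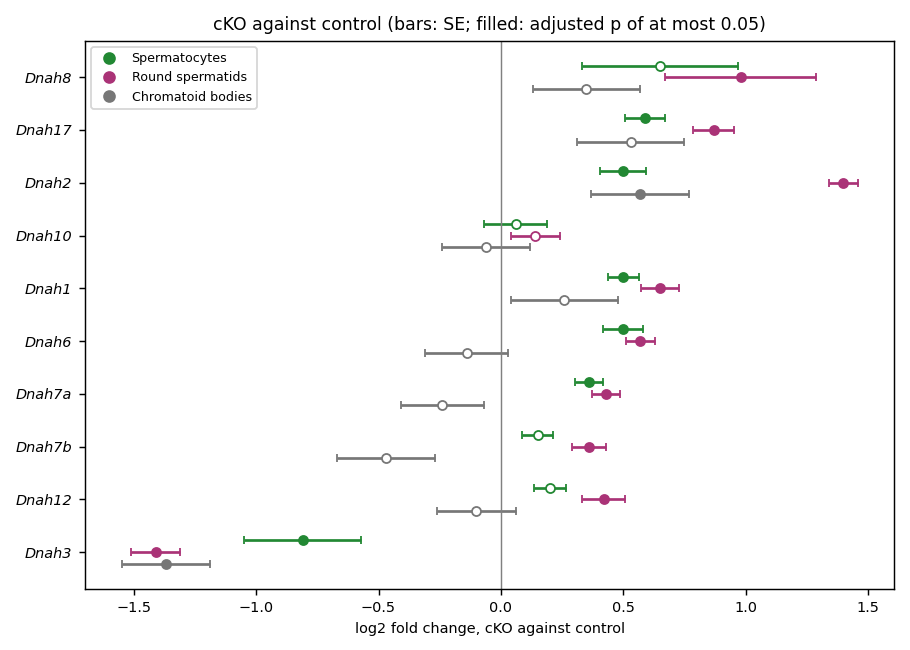
log2FC of Smg6-cKO against control for the 10 heavy chains in spermatocytes, round spermatids and CBs (points are estimates, bars SE, filled points have an adjusted P of at most 0.05). Dnah2 in round spermatids stands apart at 1.40, and Dnah3 is the one gene with filled points left of 0 in all 3 materials, at -0.81, -1.41 and -1.37.

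Scaling matters for these values. With scaling by library size alone, the median log2FC of all genes in round spermatids moved from 0.11 to 0.73 and 10232 genes passed upward against 3238 downward, in place of 6713 and 6005. Relative to the median of all genes the heavy chains moved little: the median of the 8 stood 0.50 above it with the main scaling and 0.51 above it by library size. Dnah2 stood 1.29 above it both ways, and Dnah10 stood 0.03 and 0.04 above it, although by library size alone Dnah10 passed (log2FC 0.76). Dnah3 kept its direction by library size, at -0.87.

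Germ cell stage markers and other cell types moved with genotype in the round spermatid fraction too. The late spermatid markers summed to 30800 to 40800 CPM in controls and 2050 to 2100 CPM in Smg6-cKO (10 of 10 lower), and the round spermatid markers to 5380 to 5740 and 2130 to 2510 CPM (9 of 10 lower and 1 higher). The spermatocyte markers summed to 5640 to 6110 CPM in controls and 3690 to 3870 CPM in Smg6-cKO, with 6 of 12 higher and 4 lower, and the spermatogonial markers to 45.4 to 57.1 and 76.7 to 121 CPM (5 of 8 higher and 1 lower). The macrophage markers summed to 32.4 to 51.0 CPM in controls and 225 to 364 CPM in Smg6-cKO (10 of 10 higher). The Leydig markers summed to 8.43 to 8.6 and 29.9 to 313 CPM (6 of 6 tested higher), the Sertoli markers to 54.9 to 68.5 and 74.8 to 221 CPM (8 of 9 tested higher), and the erythroid markers to 22.5 to 26.2 and 67.7 to 250 CPM (4 of 5 higher). No marker of these lists was at 0 in a whole group. The part of these shifts in the heavy chain results was not tested. The heavy chains are among the longest mRNAs, and of the 818 other genes with at least 12000 bases of exon, 40.7% passed upward and 32.0% downward in round spermatids, with a median log2FC of 0.10.

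Between stages, most heavy chain mRNAs were lower in control round spermatids than in control spermatocytes, whereas Dnah3 was 3.22-fold higher and Dnah10 1.24-fold higher. Of the 8 genes in the gene tables, 6 passed downward, where 39.7% of all 17046 genes did, and 1 passed upward, where 36.2% did. Dnah2 had the steepest difference, from 478 to 592 CPM in spermatocytes to 198 to 206 CPM in round spermatids (log2FC -1.51 ± 0.095, adjusted P = 4.7e-05), and it was the only one of the 8 that also passed a log2FC of 1.5 (17% of all genes in each direction). The groups did not overlap in 5 of the 8 downward, as in 38.0% of all genes. Markers of other cells differed between these stages as well. In control round spermatids against control spermatocytes the Sertoli cell markers summed to 54.9 to 68.5 against 292 to 780 CPM (10 of 10 lower), the Leydig cell markers to 8.43 to 8.6 against 115 to 367 CPM (7 of 7 lower) and the late spermatid markers to 30800 to 40800 against 3780 to 7770 CPM (10 of 10 higher), and their part in the stage results was not tested.

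The single-headed Dnah7b followed at -0.95 ± 0.075 (adjusted P = 9.1e-05). Dnah1 and Dnah17 both had a log2FC of -0.59 (SE 0.08 and 0.091, adjusted P = 0.00048 and 0.00082), and Dnah7a had -0.54 ± 0.066 (adjusted P = 0.00032). Dnah12, from summed transcripts, was lower at -0.76 ± 0.075 (adjusted P = 0.0002, where 38.5% of the summed genes passed downward). For these genes the spermatocyte and round spermatid controls did not overlap. Dnah8 was lower at -0.89 ± 0.27 (adjusted P = 0.019) with overlapping groups, and the call was lost without spermatocyte replicate 3 (adjusted P = 0.055) or round spermatid replicate 1 or 3 (0.069 and 0.067).

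Dnah6, Dnah10 and Dnah3 did not pass downward. Dnah6 did not pass, at -0.02 ± 0.079 (adjusted P = 0.79, interval -0.21 to 0.16), but passed downward by library size alone, at -0.48 (adjusted P = 0.00065). Dnah10 was higher, at 0.31 ± 0.10 (adjusted P = 0.024), although it turned to -0.15 by library size alone and lost the call without spermatocyte replicate 3 or round spermatid replicate 1 or 3 (adjusted P = 0.073, 0.06 and 0.063). Dnah3 was higher at 1.69 ± 0.19 (adjusted P = 0.00028), with 36.3% of the genes summed from transcripts passing upward and 18.6% also past a log2FC of 1.5. With library size scaling, where the median of all genes moved from -0.08 to -0.54, Dnah3 was still higher at 1.31 and Dnah2 stood 1.43 below the median of all genes both ways.

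The decrease was seen in Smg6-cKO as well, at smaller size for Dnah2. In Smg6-cKO round spermatids against Smg6-cKO spermatocytes 5 of 8 heavy chains passed downward, where 26.4% of all 17709 genes did, and 0 upward, where 18.9% did (1 at an unadjusted p under 0.05 and 1 by DESeq2, Dnah10 in both cases). Dnah7b had a log2FC of -0.75 ± 0.066 (adjusted P = 0.00025), Dnah2 of -0.62 ± 0.069 (0.00055), Dnah7a of -0.48 ± 0.06 (0.00087), Dnah1 of -0.45 ± 0.075 (0.0025) and Dnah17 of -0.32 ± 0.089 (0.022). The last call was the weakest and was lost without spermatocyte replicate 1 or 2 or round spermatid replicate 1, and also with DESeq2 (-0.28), library size scaling (-0.18), no filter (-0.26) and summed transcripts (-0.25), which left 4 downward calls. Dnah8 had -0.58 ± 0.36 (adjusted P = 0.22) and Dnah10 had 0.39 ± 0.14 (adjusted P = 0.052). Dnah3 was again higher in round spermatids, at 1.15 ± 0.18 (adjusted P = 0.0028), and Dnah12 lower, at -0.47 ± 0.074 (0.0026). Of the genes summed from transcripts, 20.9% passed upward and 22.8% downward in this comparison. The groups did not overlap in 5 of the 8 genes downward, as in 31.4% of all genes. Marker genes also differed between the Smg6-cKO stages. From spermatocytes to round spermatids the Leydig markers went from 553 to 1150 to 29.9 to 313 CPM (6 of 7 lower). The macrophage markers went from 50.4 to 75.5 to 225 to 364 CPM (10 of 10 higher). Of the spermatocyte markers 10 of 12 were lower and 2 higher. The part of these markers in the stage results was not tested.

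**Figure D4:**
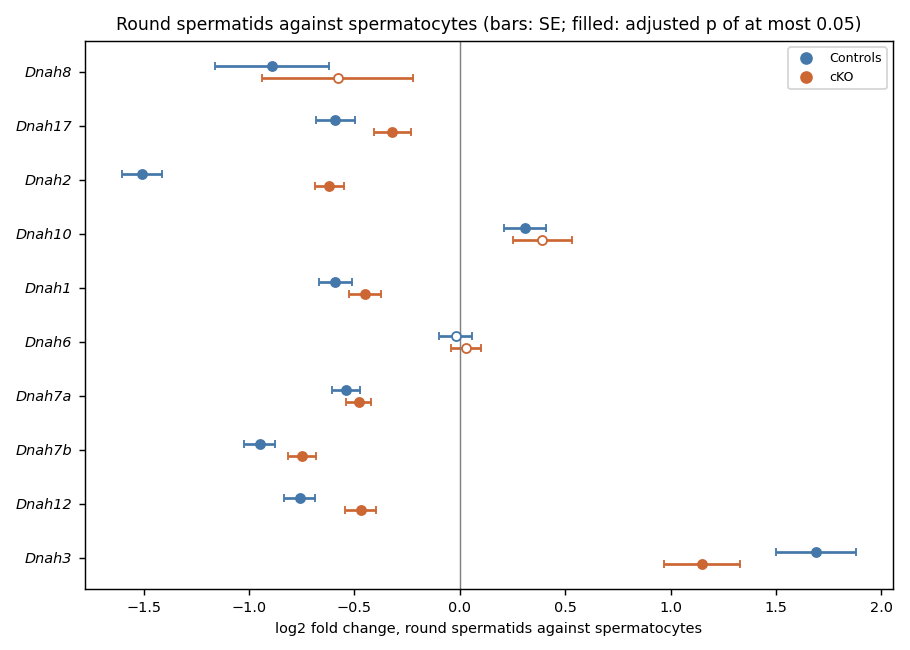
log2FC of round spermatids against spermatocytes for the 10 heavy chains, in controls and in Smg6-cKO (points are estimates, bars SE, filled points have an adjusted P of at most 0.05). Dnah2 differs most between the genotypes, at -1.51 in controls and -0.62 in Smg6-cKO, and Dnah3 is highest in both, at 1.69 and 1.15.

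The difference between these stage effects was tested as an interaction over all 12 cell libraries. Dnah2 alone of the 8 passed, with a value of 0.78 ± 0.11 (adjusted P = 0.00065), where 19% of all 18171 genes passed in this direction and 24.1% in the other. None of the 8 passed in the other direction (0 by edgeR, 0 at an unadjusted p under 0.05 and 0 by DESeq2). Put in levels, Dnah2 in Smg6-cKO round spermatids, at 505 to 547 CPM, lay within the range of control spermatocytes, at 478 to 592 CPM. The values of the other 7 ran from -0.05 (Dnah6 and Dnah7a) to 0.21 ± 0.51 (Dnah8). For Dnah8 the interval, from -0.90 to 1.33, was too wide to tell a difference of the size seen in Dnah2 from none. Dnah3 had a value of -0.71 ± 0.27 (adjusted P = 0.061, which 18.4% of the genes summed from transcripts passed downward). It passed in 3 of 12 fits with 1 library left out. By library size alone the median of all genes in this test moved from -0.13 to 0.58 and 7 of the 8 passed upward. Relative to that median Dnah2 stood 0.91 above it under both scalings and the other 7 between 0.08 and 0.35. Markers passed this test too, with 10 of 10 Sertoli markers upward and 8 of 10 round spermatid markers downward, and 0 of either list the other way. Their part in the interaction was not tested.

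In CBs Dnah3 was lower in Smg6-cKO, and most other heavy chains did not pass the test. These libraries held fewer counts and were scaled among themselves, so CB levels are not comparable with those in cells. Of the 8 genes 1 passed upward, where 18.1% of all 14051 genes did, and 0 passed downward, where 18.4% did (1 at an unadjusted p under 0.05 and 1 by DESeq2, Dnah7b in both cases). Dnah2 stood at 745, 857, 762 and 694 CPM in controls and at 1004, 975 and 1419 CPM in Smg6-cKO. The groups did not overlap, as in 2 of the 8 genes upward (19% of all genes) and 2 downward (20.8%), and the log2FC was 0.57 ± 0.20 (adjusted P = 0.038), but the call was lost in 5 of 7 fits with 1 library left out, of either group (log2FC 0.38 to 0.67 over the 7, adjusted P up to 0.14), and by library size alone (log2FC 0.41, adjusted P = 0.29).

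Dnah17 and Dnah7b lay on opposite sides. Dnah17 stood at 1074, 1277, 1036 and 1092 CPM in control CBs and at 1347, 1315 and 2175 CPM in Smg6-cKO CBs, without overlap but with 1 library far above the rest (log2FC 0.53 ± 0.22, adjusted P = 0.079). Dnah7b stood at 497, 577, 737 and 464 CPM in controls and at 413, 373 and 444 CPM in Smg6-cKO, again without overlap (log2FC -0.47 ± 0.20, adjusted P = 0.078). Dnah8 (0.35 ± 0.22, adjusted P = 0.22), Dnah1 (0.26 ± 0.22, 0.37), Dnah10 (-0.06 ± 0.18, 0.80), Dnah6 (-0.14 ± 0.17, 0.57), Dnah7a (-0.24 ± 0.17, 0.29) and Dnah12 (-0.10 ± 0.16, 0.68) did not pass.

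Dnah3 was counted at 303, 344, 340.1 and 298 CPM in control CBs and at 130, 102 and 141 CPM in Smg6-cKO CBs. The groups were well apart, with a log2FC of -1.37 ± 0.18 (adjusted P = 0.00033, where 17.1% of the 16609 genes summed from transcripts passed downward). By library size alone it was -1.65 in CBs and -0.87 in round spermatids, and whether the difference was unlike between the materials was not tested. Marker genes differed between the CB groups as well. The late spermatid markers summed to 2470 to 5200 CPM in control CBs and 515 to 587 CPM in Smg6-cKO CBs (10 of 10 lower), and the round spermatid markers to 723 to 964 and 436 to 507 CPM (7 of 10 lower). The Leydig markers summed to 16.3 to 62.4 and 46.8 to 431 CPM (6 of 6 tested higher) and the spermatogonial markers to 21.7 to 34.8 and 37.6 to 122 CPM (3 of 6 tested higher). Their part in the CB results was not tested.

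**Figure D5:**
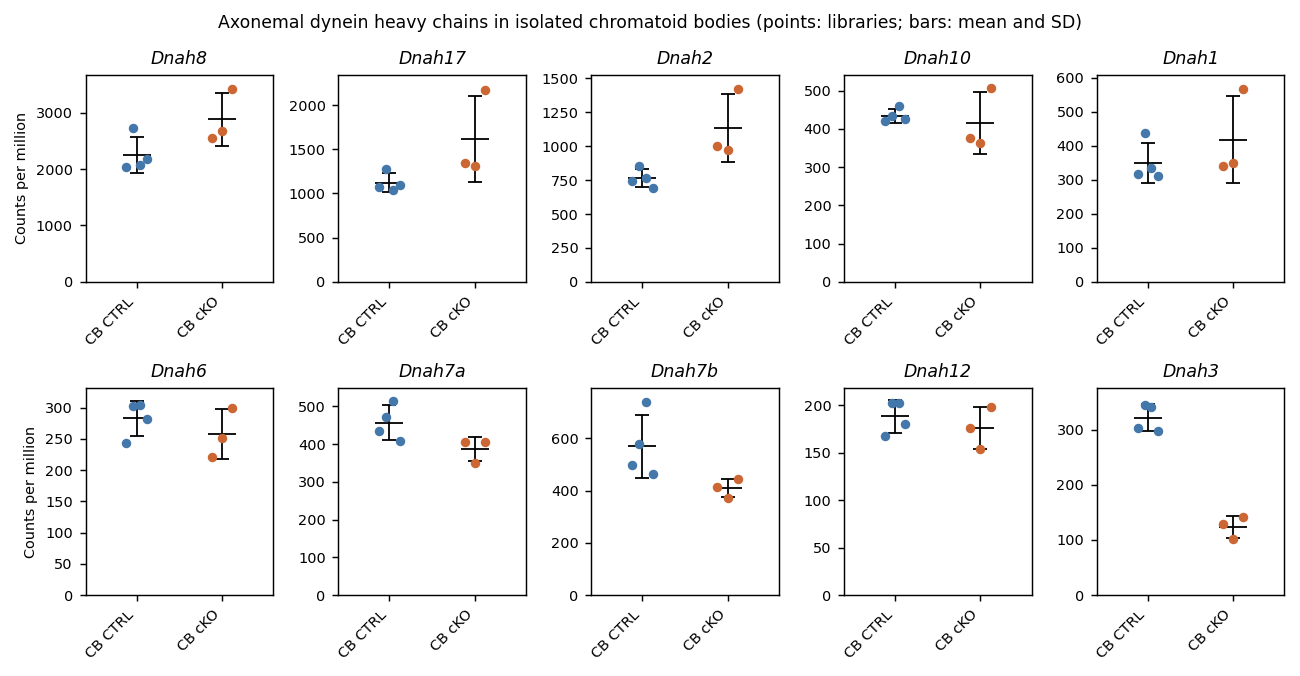
CPM of the 10 heavy chains in each CB library of control (CTRL, n = 4) and Smg6-cKO (cKO, n = 3) mice, with points for libraries and bars for mean and SD. The Dnah3 points of the 2 groups are widely separated, at 298 to 344 and 102 to 141 CPM, and 1 Smg6-cKO library holds the highest point of Dnah1, Dnah2, Dnah8, Dnah10 and Dnah17.

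Transcript counts were compared next. Reads that fit several transcripts of a gene had been shared out between them, so near-identical models carry near-identical values. Of the 31 heavy chain transcripts 16 passed upward and 1 downward in spermatocytes (16.1% and 12.5% of all 57631 transcripts), 21 upward and 1 downward in round spermatids (38.9% and 36.0% of 57133) and 6 upward and 2 downward in CBs (17.8% and 18.1% of 30623). The single downward call in the cells was that of the only Dnah3 transcript, ENSMUST00000046993. Dnah17 has long transcripts with a 3′ untranslated region of 1527 bases and one of 174 bases, and in round spermatids the 2 kinds had log2FC of 0.95 ± 0.084 (ENSMUST00000106308) and 0.93 ± 0.087 (ENSMUST00000132685). Among the transcripts of the 10 genes, the one annotated as an NMD target, ENSMUST00000185879 of Dnah7b, had log2FC values of 0.09 ± 0.12 (adjusted P = 0.59) for spermatocytes, 0.18 ± 0.11 (0.15) for round spermatids and -0.66 ± 0.26 (0.07) for CBs, while the full-length Dnah7b transcript ENSMUST00000069293 had 0.16 ± 0.070 (0.12), 0.47 ± 0.074 (0.00089) and -0.41 ± 0.20 (0.12) in the same order. The difference between the 2 transcripts was not tested.

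The outer arm heavy chains of motile cilia were lower in Smg6-cKO round spermatids, unlike Dnah8 and Dnah17. Dnah5, Dnah9 and Dnah11 were scarce in all cell libraries, with a summed level of 9.66 to 63.2 CPM. Dnah5 stood at -1.02 ± 0.22 (adjusted P = 0.0034) in Smg6-cKO round spermatids against control, Dnah9 at -0.89 ± 0.22 (0.0068) and Dnah11 at -3.27 ± 0.99 (0.017). Dnah11 stood at 2.36, 2.22 and 27.8 CPM in control round spermatids and at 0.768 to 1.46 CPM in Smg6-cKO, so that the groups did not overlap but the size of the difference rests on control replicate 3. In spermatocytes Dnah11 had -3.70 ± 1.1 (adjusted P = 0.039), again with 1 high control, at 15.6, 1.59 and 1.43 CPM against 0.355 to 0.752 CPM in Smg6-cKO. In CBs it had -2.59 ± 0.49 (adjusted P = 0.0014), with controls at 6.63 to 19.1 CPM and Smg6-cKO at 0.921 to 2.38 CPM. Dnah5 had -1.14 ± 0.21 (adjusted P = 0.0012) in CBs and Dnah9 0.38 ± 0.22 (0.19), while in spermatocytes they had -0.21 ± 0.32 (0.64) and 0.02 ± 0.26 (0.96). Dnah5 and Dnah9 were also the heavy chains that were higher in control round spermatids than in control spermatocytes, at 1.81 ± 0.27 and 1.55 ± 0.19 (adjusted P = 0.00069 and 0.00035), together with Dnah3 and Dnah10. Dnah7c moved with its copies (0.57 ± 0.067 in round spermatids, adjusted P = 0.00016). Dnah14, seen only through short transcripts, was higher by 2.05 ± 0.069 on the log2 scale in Smg6-cKO round spermatids (adjusted P = 4e-07). The genotype effect also differed between stages for Dnah14 (interaction 0.82 ± 0.10, adjusted P = 0.00043) and, in the other direction, for Dnah9 (-1.03 ± 0.35, 0.035). Of the cytoplasmic heavy chains, Dync1h1 did not differ in round spermatids (-0.05 ± 0.052, adjusted P = 0.44), and Dync2h1, the motor of retrograde transport in cilia, was higher at 0.31 ± 0.069 (0.0041).

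The partners of the heavy chains were split in round spermatids, and their counts stand beside the 38.4% of all genes that passed upward and the 34.3% that passed downward. Of 11 intermediate and light chain genes tested 3 passed upward and 5 downward, with a median log2FC of -0.23. The intermediate chain genes Wdr78 (0.64 ± 0.058, adjusted P = 3.3e-05) and Wdr63 (0.33 ± 0.094, 0.013) were higher, and the light chain genes Dynlrb2 (-1.23 ± 0.068, 2e-06) and Dnal1 (-0.62 ± 0.13, 0.0032) were lower. Of 18 genes for cytoplasmic assembly of dynein arms 4 passed upward and 8 downward (median -0.25). Dyx1c1 stood at 1.87 ± 0.095 (1.3e-06) and Zmynd10 at 0.71 ± 0.068 (4.1e-05), against Ccdc103 at -0.92 ± 0.10 (8.5e-05) and 9230110C19Rik at -0.88 ± 0.081 (3.3e-05). These are factors that fold or deliver the arms before they enter the axoneme.

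Of 16 genes of the docking complex, the rulers and the nexin-dynein regulatory complex, which fix the arms on the doublets, 5 passed upward and 8 downward (median -0.09), with Ccdc151 (0.87 ± 0.073, 1.9e-05) and Ccdc39 (0.71 ± 0.087, 0.00016) highest and Armc4 (-0.92 ± 0.13, 0.00035) and Ttc25 (-0.71 ± 0.083, 0.00012) lowest. Of 10 transcription regulators of cilia or meiotic genes 1 passed upward and 8 downward (median -0.99). The meiotic activator Mybl1 was higher at 0.67 ± 0.074 (8.7e-05), from 44.3 to 46.7 CPM in controls to 68.7 to 74.4 CPM in Smg6-cKO, whereas Sox30, a regulator of the haploid programme, stood at -1.39 ± 0.073 (1.5e-06), Gmnc at -1.63 ± 0.31 (0.0018) and the ciliary regulator Foxj1 at -0.41 ± 0.095 (0.0045). Gmnc was barely counted, at 0.838 to 1.15 CPM in controls and 0.274 to 0.329 CPM in Smg6-cKO. In spermatocytes, where 14.0% of all genes passed upward and 14.1% downward, 6 of 11 intermediate and light chain genes passed upward and 2 downward, as did 2 and 1 of the 18 assembly genes and 4 and 3 of the 16 docking genes.

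Across the 12 cell libraries most heavy chains varied together, and Dnah3 ran against them. These correlations describe 4 groups of 3 libraries and share each library's composition. Pearson's r between Dnah1 and Dnah17 was 0.98 and between Dnah2 and Dnah7a 0.95, whereas Dnah3 had r of -0.97 with Dnah12, -0.96 with Dnah2 and -0.95 with Dnah7b. Dnah10 had r of 0.48 with Dnah3, 0.47 with Dnah6 and -0.01 with Dnah17, and of -0.64 with Dnah7b, -0.51 with Dnah12 and -0.46 with Dnah8. A mean pattern was taken over the 8 heavy chains in the gene tables, so without Dnah3 and Dnah12. Of 6614 other well counted genes, those most like this mean were Ccny (r = 0.994), Dpp8 (0.993), Fancd2 (0.991), Sumo3 (0.991) and Gpcpd1 (0.990), over the same 12 libraries. Dpp8, for example, went from 280 ± 14.9 to 484 ± 24.0 CPM in spermatocytes and from 184 ± 5.00 to 334 ± 4.98 CPM in round spermatids, control to Smg6-cKO (SD, n = 3).

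In the cells Dnah8 was spread more widely between replicates than Dnah17, the other outer arm gene. Its coefficient of variation was 30.2% to 38.6% in the 4 groups of cells, against 3.15% to 11.4% for Dnah17. In the CB libraries that of Dnah8 was 15.9% in controls and 19.4% in Smg6-cKO, and that of Dnah17 was 11.6% and 33.4%.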

How the data were processed

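Per the labels and the study's methods, the authors trimmed reads with cutadapt (2.8), aligned them to GRCm38/mm10 with STAR (2.7.1a) and counted genes and repeats with TEtranscripts in reverse-stranded mode. These deposited counts per gene were used raw. The deposited transcript table, made by the authors with featureCounts (2.0.1), holds expected counts with shared reads divided, rounded here to whole numbers, and 98.0% of its 110379 transcripts matched GENCODE vM21. Versions are those of the submitters' processing notes. Genes with at least 10 counts, or transcripts with at least 20, in at least 3 libraries were tested with edgeR 4.0.16 (TMM scaling, quasi-likelihood test, Benjamini-Hochberg adjustment over all tested) in R 4.3.3. A gene passed at an adjusted P of at most 0.05, and "a log2FC of 1.5" adds that size. The SE is the log2FC divided by the square root of F, and 95% intervals use the t quantile at the degrees of freedom of each gene's test. The fits were tested on simulated data. CPM used TMM factors over the 12 cell libraries or the 7 CB libraries. These factors were 0.716 to 0.767 in control round spermatids and 1.13 to 1.18 in Smg6-cKO round spermatids. Alternatives were DESeq2 1.42.0, library size scaling, no count filter, summed transcripts, a replicate block and each library left out. The rows of repeats, the piRNA precursor tables and the small RNA libraries were not used here. One promoter result is not reported here. CB columns gave a group but no sample number. Named genes were all 10 members, the other heavy chains, the 2 highest and the 2 lowest called genes of each partner list in round spermatids, and the 5 genes most like the members with a mean normalised count of at least 1000. The heavy chains, lists and markers were chosen with earlier results of these data known. P-values measure the spread between these libraries.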

Additional observations from a re-analysis of the deposited data

Results flagged for a closer look

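In the main fits Dnah2 was the one of the 10 heavy chains whose genotype effect differed between stages by a test of the difference itself. The interaction on the log2 scale was 0.78 ± 0.11 (edgeR's quasi-likelihood test, adjusted P = 0.00065), from genotype effects of 0.50 in spermatocytes and 1.40 in round spermatids when each stage was fitted alone. All 3 Smg6-cKO libraries were above all 3 controls at each stage. With each of the 12 cell libraries left out in turn Dnah2 was the one gene of the 8 that passed, and relative to the median of all genes it stood 0.91 higher both with the main scaling and by library size. Dnah3, which is not among the 8, missed the threshold in the main fit (-0.71, adjusted P = 0.061). It passed in 3 of 12 fits with 1 library left out, with values from -0.51 to -0.96 over the 12. The cause of the Dnah2 difference was not tested. Of the other axonemal heavy chains, Dnah14 (0.82, adjusted P = 0.00043) and Dnah9 (-1.03, adjusted P = 0.035) also passed this test, Dnah14 from transcript counts summed per gene. No heavy chain level among the 4 control CB libraries was set apart by Dixon's criterion, which chance alone would meet in about 1 in 20 groups.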

How the results depend on the processing

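Of 708 log2FC values of the 10 heavy chains under alternative settings, 625 kept their direction and their side of the threshold, 30 lost the call, 24 gained it and 29 changed sign. The cause of these changes was not tested. The upward count over the 8 genes of the gene tables was 5 in spermatocytes under each alternative with all libraries, and in round spermatids it was 7 with DESeq2, no filter or summed transcripts, 8 by library size and 6 with the replicate block. In CBs the upward count was 2 with DESeq2 and 0 with library size scaling, no filter or summed transcripts, and the downward count was 1 with DESeq2 or no filter. Between stages the upward count was 0 by library size in controls and 1 in Smg6-cKO with DESeq2, library size, no filter, summed transcripts or the replicate block. The downward count was 7 by library size in controls, and in Smg6-cKO 4 with DESeq2, library size, no filter or summed transcripts and 6 with the replicate block. By library size 7 genes passed upward in the interaction, and 0 transcripts passed upward in CBs, as with no filter.

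With all libraries kept, the values that changed sign had been 0.05 or smaller in size, apart from Dnah10 in the control stage comparison, at 0.31. DESeq2 gave 0.041 for Dnah6 in the control stage comparison and, in the interaction, 0.038 for Dnah10, 0.019 for Dnah6 and 0.020 for Dnah7a. Library size gave -0.15 for Dnah10 in the control stage comparison and 0.67, 0.66 and 0.66 for Dnah10, Dnah6 and Dnah7a in the interaction. No filter gave 0.013 for Dnah10 there, and summed transcripts gave 0.034, 0.019 and 0.0085 for Dnah10, Dnah6 and Dnah7a.

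With 1 library left out at a time, upward counts ran from 5 to 6 in spermatocytes, 6 to 7 in round spermatids, 0 to 1 in CBs, 0 to 1 in both stage comparisons, and stayed at 1 in the interaction. Downward counts ran from 5 to 6 in the control and 4 to 5 in the Smg6-cKO stage comparison. Transcript counts ran from 11 to 15 upward and 0 to 1 downward in spermatocytes, 19 to 26 upward in round spermatids, and 1 to 8 upward and 1 to 3 downward in CBs. Sign changes arose for Dnah10 in spermatocytes (-0.044 to 0.17), Dnah1 (-0.015 to 0.38) and Dnah10 (-0.23 to 0.030) in CBs, Dnah6 in the control (-0.10 to 0.0013) and the Smg6-cKO stage comparison (-0.0041 to 0.13), and in the interaction for Dnah1 (-0.022 to 0.093), Dnah10 (-0.16 to 0.092), Dnah6 (-0.090 to 0.028), Dnah7a (-0.072 to 0.042) and Dnah8 (-0.079 to 0.50).

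Library size scaling changed the split of all genes upward and downward from 6169 and 6775 to 4318 and 9082 in the control stage comparison, from 3354 and 4684 to 4480 and 3670 in the Smg6-cKO one, from 3459 and 4375 to 8087 and 545 in the interaction and from 2547 and 2589 to 1587 and 2573 in CBs.

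Correlations of same-numbered libraries ran from -0.181 to 0.559 and were above 0.1 in 4 of 12 pairs, 2 of them between the stages of Smg6-cKO (0.559 and 0.304), but in no comparison in all 3 pairs, so the numbers were not taken as pairs. Between the control stages, libraries of unlike number were correlated: spermatocyte replicate 1 with round spermatid replicate 3 (0.315), 2 with 1 (0.364) and 3 with 2 (0.407). Whether these share a mouse is not given, and no fit used them as pairs, so the control stage results are unpaired. With the number as a block, Dnah8 in round spermatids (0.95, adjusted P = 0.064) and Dnah3 in spermatocytes (-0.80, 0.068) lost the call, Dnah8 (-0.57, 0.0015) and Dnah10 (0.39, 0.0066) gained it in the Smg6-cKO stage comparison and Dnah3 (-0.73, 0.025) in the interaction, and the downward transcript count in spermatocytes was 0. No paired analysis was possible in CBs because their columns carry no usable numbers. The CB libraries held 2705277 to 12103906 counts, and whether depth limited their calls was not tested.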

Other observations

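The spread of Dnah8 between replicates was shared by other genes of its chromosome. After removal of the group means, the 20 well counted genes whose deviations followed those of Dnah8 most closely over the 12 cell libraries included 10 on chromosome 17, between 6.4 and 33.3 Mb, whereas 5.35% of the 6378 genes ranked lie on that chromosome. Among these 10 were Rsph3b, a radial spoke gene, the dynein light chain genes Dynlt1b and Tcte3, and Glo1, which overlaps Dnah8 on the opposite strand (r = 0.925). Gm3417, Gm3448 and Tcte3 lie next to each other, starting at 14964242, 14995787 and 15027152, with r of 0.94, 0.94 and 0.938. The 10 genes are therefore not 10 separate observations. Rsph3b stood at 154, 165 and 259 CPM in control spermatocyte replicates 1, 2 and 3 and at 264, 162 and 260 CPM in the Smg6-cKO ones, so its high and low libraries were those of Dnah8. Tcte3 showed the order of Dnah8 in round spermatids, at 158, 217 and 173 CPM in controls and 158, 90.8 and 147 CPM in Smg6-cKO. In spermatocytes its order differed from that of Dnah8, at 136, 110 and 193 CPM in controls and 240, 112 and 212 CPM in Smg6-cKO. The antisense neighbour 1700097N02Rik followed at r = 0.979, and Ubash3a, also within 1 Mb, at r = 0.915, while the neighbours within 1 Mb other than these and Glo1 lay between -0.639 (Zfand3) and 0.636 (U2af1). The genes were picked for this likeness, so the values are a description, and the mice were of mixed C57Bl/6J and SV129 background. The part of the background in these values was not tested.

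Other genes marked single control libraries. Smg6 was lowest among controls in spermatocyte replicate 3, at 109 CPM against 166 and 172, and in round spermatid replicate 2, at 143 CPM against 217 and 235, which were also the control libraries with the most Dnah8. Dnah11 was high in control spermatocyte replicate 1, at 15.6 CPM against 1.59 and 1.43, and in control round spermatid replicate 3, at 27.8 CPM. These 3 genes were singled out after their values were seen, and no test was made.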
